A study of Mus musculus with 31 samples.

Results

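The genes described here are 10 secreted regulators of the transforming growth factor-β (TGF-β) superfamily: the activin subunits Inhba and Inhbb, the activin binder Fst, the TGF-β ligands Tgfb1, Tgfb2 and Tgfb3, the bone morphogenetic proteins (BMPs) Bmp2, Bmp4 and Bmp7, and the BMP antagonist Grem1. They were taken by gene name from the array annotation. They are 10 of 34797 gene names and have 12 of 55681 probes, and 9 of the 10 genes had a probe well above background on all 31 arrays. Grem1 had none.

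The arrays measured RNA of whole mouse uterus. Mice were ovariectomised at 4 weeks of age, kept for 3 weeks, and given estradiol (E2) at 8 µg/kg or, as placebo (PLB), at 0 µg/kg, in castor oil under the skin. The uterus was studied 6 h later. The AF2 line is on C57BL6/J. Its groups are AF2 KO E2 with 3 arrays, AF2 KO PLB, AF2 WT E2 and AF2 WT PLB with 4 each. The MISS line is on C57BL6/N, with MISS KO E2, MISS KO PLB, MISS WT E2 and MISS WT PLB at 4 arrays each. From knowledge outside the labels, the receptor at issue is ERα, encoded by Esr1. The form made in AF2 KO mice has lost activation function 2, a surface where coactivators dock. The form made in MISS KO mice is not palmitoylated and does not reach the cell membrane. Both mutants therefore still make a form of ERα, and KO here does not mean absence of the receptor. All mice, the wild types included, lacked ovaries. Since the lines differ in substrain, a difference between their wild types cannot be told apart from substrain and line.

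Ligands of this superfamily are made as precursors and cut by proteases. They bind pairs of type I and type II serine/threonine kinase receptors, which phosphorylate Smad2 and Smad3 for activins and TGF-βs, or Smad1, Smad5 and Smad9 for BMPs. Activin A is a dimer of Inhba products and activin B of Inhbb products. Follistatin, the product of Fst, binds activins and keeps them from their receptors, and gremlin 1 does the same for BMPs. In the mouse uterus, Bmp2 is needed for stromal cells to decidualise around an embryo.

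Each gene was read by a 60-base probe, and 3 are shown because they read closely related ligands. The mature parts of Tgfb1 and Tgfb2 are similar proteins, and their probes lie over the same stretch of them. An ungapped overlap of 41 bases starts at base 20 of the Tgfb1 probe and at base 1 of the Tgfb2 probe. Of these, 28 bases are identical, shown in capitals, and 13 differ, which is 68.3% identity. Each sequence is written 5′ to 3′, as the array lists it. Their mm9 positions are chr7:26489877-26489936 (+) for Tgfb1, chr1:188449333-188449392 (−) for Tgfb2 and chr13:16118634-16118693 (+) for Inhba. The array annotation names gene and position but no exon part. Whether RNA of the other TGF-β gene adds to either probe was not tested.
Tgfb1 probe: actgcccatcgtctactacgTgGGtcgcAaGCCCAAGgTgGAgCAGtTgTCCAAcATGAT
Tgfb2 probe: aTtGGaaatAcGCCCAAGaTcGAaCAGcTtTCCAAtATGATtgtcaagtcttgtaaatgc
Inhba probe: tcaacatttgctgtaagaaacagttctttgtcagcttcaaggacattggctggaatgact

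RefSeq promoters on GRCm38.p6 were at hand for 6 of the 10 members, and 4 are shown: 3 genes that rose under E2 and Bmp4, which fell. Each is the 250 bases before the gene's start, 5′ to 3′ on the gene's strand. The windows are chr1:119422249-119422498 (−) for Inhbb, chr13:16011601-16011850 (+) for Inhba, chr7:25686752-25687001 (+) for Tgfb1 and chr14:46390670-46390919 (−) for Bmp4. Capitals mark a half-site of the estrogen response element, GGTCA or its reverse complement TGACC.
Inhbb promoter: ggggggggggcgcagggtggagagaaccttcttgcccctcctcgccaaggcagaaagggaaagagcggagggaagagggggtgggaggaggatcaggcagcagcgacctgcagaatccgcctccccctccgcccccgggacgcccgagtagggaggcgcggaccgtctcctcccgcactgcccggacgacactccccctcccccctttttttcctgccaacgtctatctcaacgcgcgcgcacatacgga
Inhba promoter: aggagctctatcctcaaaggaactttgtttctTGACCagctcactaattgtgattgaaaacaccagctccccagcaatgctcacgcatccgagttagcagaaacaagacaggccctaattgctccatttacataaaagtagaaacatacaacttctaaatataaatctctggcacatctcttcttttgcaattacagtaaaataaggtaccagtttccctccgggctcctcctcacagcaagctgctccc
Tgfb1 promoter: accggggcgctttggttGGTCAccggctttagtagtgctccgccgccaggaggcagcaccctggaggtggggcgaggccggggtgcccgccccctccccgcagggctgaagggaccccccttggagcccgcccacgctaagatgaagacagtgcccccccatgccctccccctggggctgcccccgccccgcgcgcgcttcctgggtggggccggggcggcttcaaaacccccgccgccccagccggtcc
Bmp4 promoter: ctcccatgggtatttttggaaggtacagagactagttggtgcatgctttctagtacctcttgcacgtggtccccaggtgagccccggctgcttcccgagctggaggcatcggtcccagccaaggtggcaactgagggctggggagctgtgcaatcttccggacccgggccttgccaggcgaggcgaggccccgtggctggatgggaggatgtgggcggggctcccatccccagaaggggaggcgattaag

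On both strands, the full palindrome GGTCANNNTGACC, which contains the half-site on each arm, was in 0 of the 6 member windows and in 21 of 32851 RefSeq windows of this length (0.0639%). The half-site alone was in 3 of the 6 member windows (Inhba, Tgfb1 and Grem1) and in 35.2% of all windows. Inhbb, Tgfb2 and Bmp4 had none in this window.

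All levels below are log2 values relative to the 75th percentile of each array's signal, which was 474.7 to 918.4 intensity units. The share of probes above background was 61.8 to 77.1% per array, and saturation was found on 0 spots. Of the Esr1 probes, A_66_P138072 read −1.31 to −1.0 in AF2 KO (n = 7), against −0.08 to 0.68 in AF2 WT (n = 8), over both treatments. It read 0.23 to 0.73 in MISS KO, against −0.44 to 0.67 in MISS WT (n = 8 each). The brightest Esr1 probe, A_52_P237077, read 2.80 to 3.06 in AF2 KO, against 3.03 to 3.65 in AF2 WT. Where these probes lie relative to either altered sequence is not given in the sources used here, so they check the AF2 labels only in part and the MISS labels not at all. The labels give each array a number of its own but do not say that samples came from separate animals, so p-values measure the spread between these samples.

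Markers of uterine epithelium, stroma and smooth muscle were all measured, and some moved with E2. Of all genes, 3.3% were called for E2 in AF2 KO, 57.4% in AF2 WT, 57.1% in MISS KO and 62% in MISS WT. Nothing particular to a cell type is read from the counts of markers called. The summed stromal markers (7 genes) were 472 to 507 times the 75th percentile in AF2 KO E2, against 585 to 746 in AF2 KO PLB, and 289 to 362 in AF2 WT E2, against 505 to 612 in AF2 WT PLB. They were 294 to 400 in MISS KO E2, against 547 to 667 in MISS KO PLB, and 330 to 371 in MISS WT E2, against 555 to 724 in MISS WT PLB. Of them 2 fell in AF2 KO, 6 in AF2 WT, 3 in MISS KO and 3 in MISS WT. Of 6 smooth muscle markers, 4 rose in MISS KO and 5 in MISS WT, and 0 rose in AF2 KO and in AF2 WT. Their sum was 852 to 1130 in MISS KO E2, against 487 to 750 in MISS KO PLB. It was 911 to 1320 in MISS WT E2, against 550 to 1220 in MISS WT PLB. In the AF2 line it was 481 to 713 in AF2 KO E2, against 656 to 768 in AF2 KO PLB. It was 761 to 1120 in AF2 WT E2, against 670 to 964 in AF2 WT PLB. Under E2, Des (−0.7), Acta2 (−0.74), Cnn1 (−1.14) and Actg2 (−1.5) were called lower in AF2 KO than in AF2 WT. Myh11 and Tagln were not. The summed epithelial markers (8 genes) were 243 to 315 in AF2 KO E2 and 210 to 269 in AF2 KO PLB, against 158 to 201 in AF2 WT E2 and 142 to 186 in AF2 WT PLB. They were 139 to 194 in MISS KO E2, 147 to 188 in MISS KO PLB, 166 to 201 in MISS WT E2 and 145 to 175 in MISS WT PLB. By limma at an unadjusted p under 0.05, all 8 differed between AF2 KO and AF2 WT under placebo. For E2 there were 1 in AF2 KO, 6 in AF2 WT, 7 in MISS KO and 5 in MISS WT. Of 5 macrophage markers, 3 fell in AF2 WT, in MISS KO and in MISS WT, Cd68 rose in AF2 WT and MISS KO, and 0 were called in AF2 KO. Their sum was 25.5 to 28.8 in AF2 KO E2, against 26.9 to 28.3 in AF2 KO PLB, and 13.5 to 18.7 in AF2 WT E2, against 21.4 to 27.6 in AF2 WT PLB. It was 16.9 to 24.9 in MISS KO E2, against 19.9 to 28.9 in MISS KO PLB, and 20.6 to 25.7 in MISS WT E2, against 25 to 51.1 in MISS WT PLB. Of 5 granulocyte markers, 2 rose in each of AF2 WT, MISS KO and MISS WT and 0 in AF2 KO, with Ly6g at 1.90 ± 0.49, 2.10 ± 0.49 and 1.29 ± 0.49, and Mpo fell in MISS WT. Their sum was low, at 0.42 to 2 under E2 and 0.27 to 2.13 under placebo over the 4 genotypes. In such bulk RNA, fewer cells of a type and less RNA per cell cannot be told apart, and the part these shifts play in the values below was not tested. Replicate 2 of MISS WT PLB stood apart from its group. It was the highest of the 4 for Inhba, Fst, Tgfb1, Tgfb2 and Tgfb3 and the lowest for Bmp4, so the E2 changes in MISS WT were also computed without it. They were then 2.62 for Inhba, 2.06 for Fst, 0.87 for Tgfb1, 2.05 for Tgfb2, 0.46 for Tgfb3 and −1.65 for Bmp4, each still called. For these genes that array lay nearest to the E2 arrays among its group, so leaving it out had to enlarge the changes. These values therefore do not test the calls.

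Inhbb, which encodes the βB subunit of activin and inhibin B, had the largest E2 response of the 9 measured genes in AF2 WT, MISS KO and MISS WT. Its probe is at chr1:121312160-121312219 (−, mm9). Levels were 6.53, 6.15, 6.41 and 6.03 in AF2 WT E2, against 1.77, 1.56, 1.62 and 1.44 in AF2 WT PLB. The groups lay far apart, and the rise was 4.68 ± 0.31 on the log2 scale (SE, limma), or 25.7-fold, with an adjusted p of 1.11e-12. In MISS WT, levels were 6.48, 6.11, 5.98 and 5.20 under E2, against 2.50, 1.05, 1.97 and 0.94 under placebo, a rise of 4.33 ± 0.31 (20.1-fold, adjusted p = 3.57e-12). MISS KO E2 arrays read 5.58, 5.31, 4.89 and 4.51, against 0.70, 1.90, 1.47 and 0.77 in MISS KO PLB, a rise of 3.86 ± 0.31 (14.6-fold, adjusted p = 3.72e-11). AF2 KO was the exception. Its E2 arrays read 0.94, 0.43 and 0.41, against 0.52, 0.56, 0.31 and −0.02 in AF2 KO PLB, so the groups overlapped and the difference was 0.25 ± 0.34 (adjusted p = 0.803).

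Inhba encodes the βA subunit of activin A. It rose in MISS WT and MISS KO and, by less, in AF2 WT. Levels were 3.00, 2.70, 2.72 and 1.5 in MISS WT E2, against −0.21, 0.49, −0.09 and −0.14 in MISS WT PLB, and did not overlap. The rise was 2.47 ± 0.27 (5.53-fold, adjusted p = 1.07e-08). MISS KO E2 arrays read 2.02, 2.12, 1.54 and 1.58, against −0.01, 0.02, −0.11 and −0.23 in MISS KO PLB, a rise of 1.90 ± 0.27 (3.73-fold, adjusted p = 9.82e-07). AF2 WT E2 arrays were spread widely. They read 1.08, 0.93, 0.40 and −0.41, against −0.40, −0.24, −0.54 and −0.24 in AF2 WT PLB. The lowest E2 array overlapped the placebo arrays, and the rise was 0.86 ± 0.27 (1.81-fold, adjusted p = 0.00862). Without that E2 array it was 1.16. In AF2 KO, levels were −0.58, −0.42 and −0.97 under E2, against −0.54, −0.26, −0.65 and −0.53 under placebo. They overlapped, and the difference was −0.16 ± 0.29 (95% confidence interval −0.77 to 0.44, adjusted p = 0.863).

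Fst, the activin binder (chr13:115243565-115243624, −, mm9), rose in both genotypes of the MISS line. Levels were 0.18, 0.56, 0.12 and −0.97 in MISS WT E2, against −2.16, −1.42, −2.39 and −1.72 in MISS WT PLB, with no overlap. The rise was 1.90 ± 0.30 (3.72-fold, adjusted p = 4.02e-06). In MISS KO E2 it read −0.67, 0.28, −0.25 and −0.78, against −1.46, −1.01, −1.85 and −1.54 in MISS KO PLB, a rise of 1.11 ± 0.30 (2.16-fold, adjusted p = 0.00238). In the AF2 line its change did not pass the test. AF2 WT E2 arrays read −0.89, −1.43, −0.89 and −1.64, against −1.72, −1.25, −2.22 and −1.88 in AF2 WT PLB, a difference of 0.56 ± 0.30 (adjusted p = 0.116). It passed after quantile normalization (0.71, adjusted p = 0.0451) and with slide as a block (0.56, adjusted p = 0.0407). AF2 KO E2 arrays read −0.76, −1.42 and −1.20, against −1.08, −0.56, −1.13 and −1.35 in AF2 KO PLB, a difference of −0.10 ± 0.32 (adjusted p = 0.936). Both pairs of groups overlapped.

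**Figure D1:**
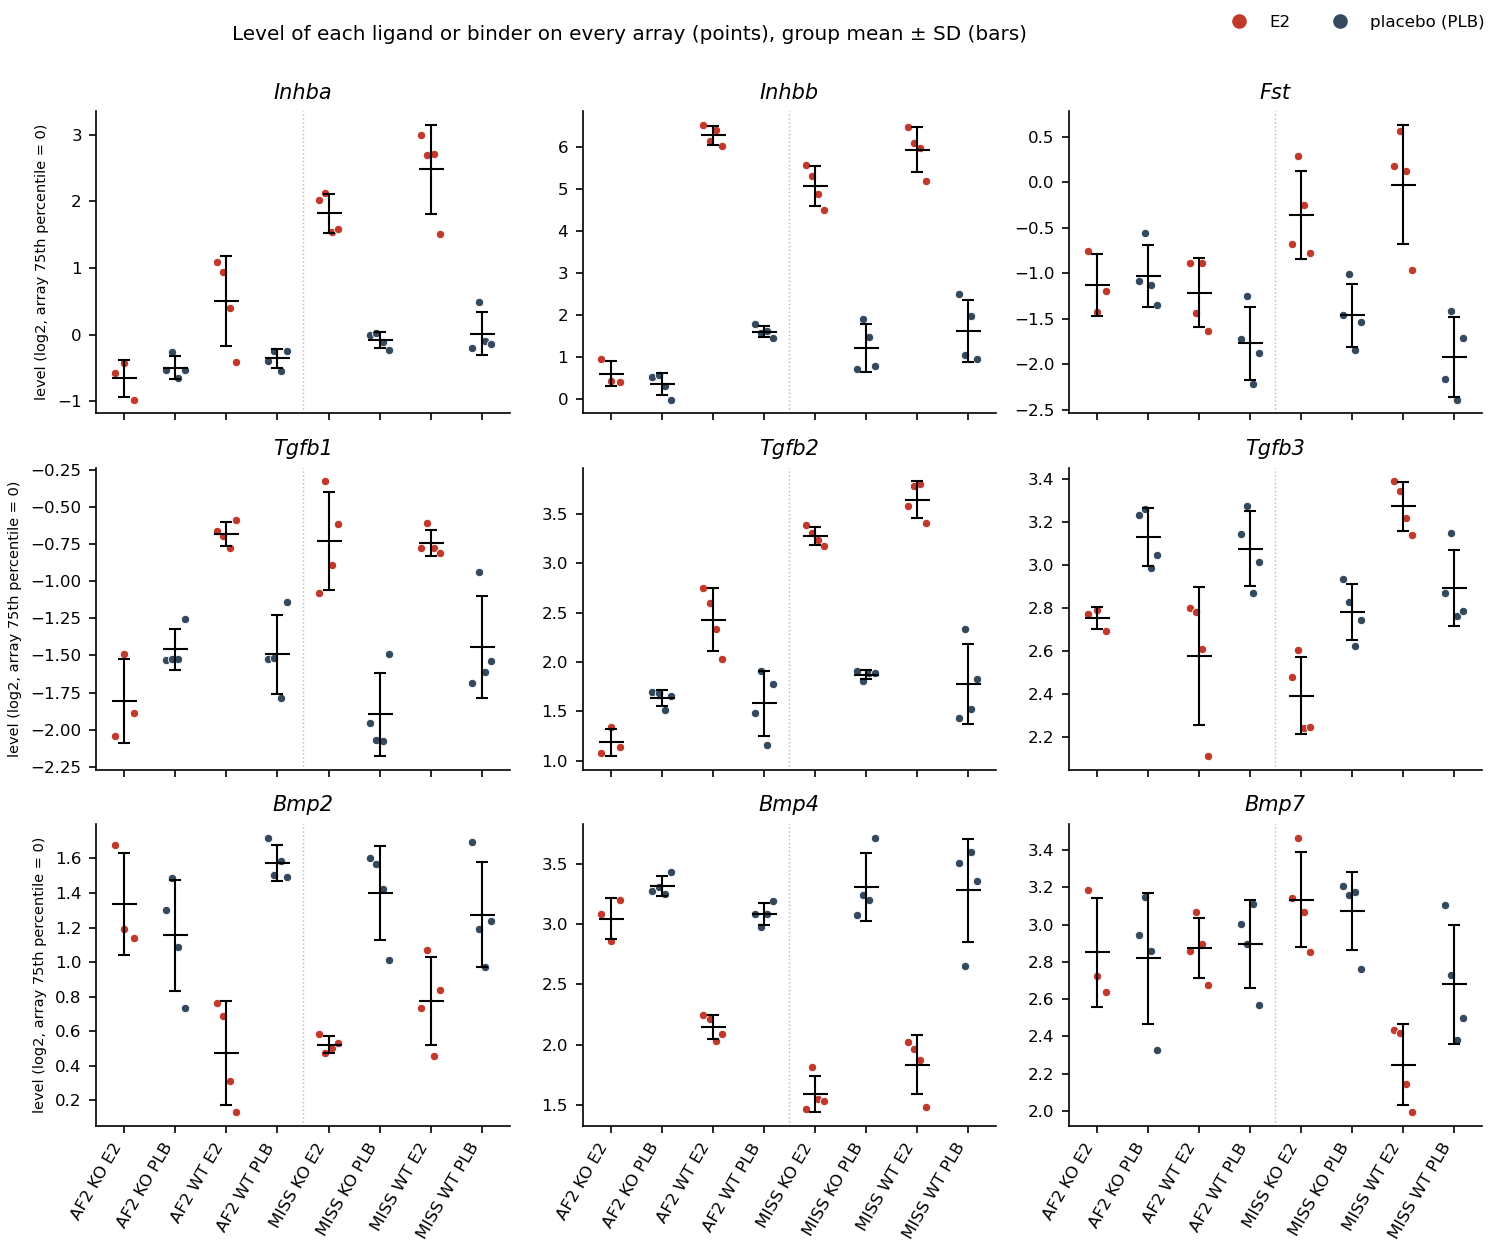
Level of each of the 9 measured genes (log2, the 75th percentile of the array set to 0) on every array, as points, with group mean ± SD as bars and E2 left of placebo in each genotype. Inhbb lies at 4.51 to 6.53 under E2 in AF2 WT, MISS KO and MISS WT and at 0.41 to 0.94 in AF2 KO E2.

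Tgfb1 and Tgfb2, which encode 2 of the 3 TGF-β ligands, also rose under E2 in AF2 WT, MISS KO and MISS WT. Tgfb1, printed on 10 spots per array, read −0.66, −0.70, −0.78 and −0.59 in AF2 WT E2, against −1.53, −1.52, −1.78 and −1.14 in AF2 WT PLB. The groups did not overlap, and the rise was 0.81 ± 0.17 (1.75-fold, adjusted p = 0.000214). MISS KO E2 arrays read −1.08, −0.33, −0.90 and −0.62, against −1.96, −2.07, −2.08 and −1.49 in MISS KO PLB, a rise of 1.16 ± 0.17 (2.24-fold, adjusted p = 1.52e-06). MISS WT E2 arrays read −0.78, −0.61, −0.78 and −0.81, against −1.69, −0.94, −1.61 and −1.54 in MISS WT PLB, a rise of 0.70 ± 0.17 (1.63-fold, adjusted p = 0.000904). AF2 KO lay the other way, below the threshold of the test. Its E2 arrays read −2.04, −1.49 and −1.89, against −1.53, −1.52, −1.53 and −1.26 in AF2 KO PLB, a difference of −0.35 ± 0.18 (adjusted p = 0.366).

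Tgfb2 read 3.58, 3.79, 3.80 and 3.41 in MISS WT E2, against 1.43, 2.33, 1.53 and 1.83 in MISS WT PLB. The groups were clearly separate, with a rise of 1.87 ± 0.17 (3.64-fold, adjusted p = 2.4e-10). In MISS KO, E2 arrays read 3.39, 3.31, 3.23 and 3.17, against 1.91, 1.81, 1.89 and 1.89 in MISS KO PLB, a rise of 1.40 ± 0.17 (2.64-fold, adjusted p = 4.97e-08). AF2 WT E2 arrays read 2.75, 2.60, 2.33 and 2.03, against 1.49, 1.90, 1.16 and 1.77 in AF2 WT PLB, a rise of 0.85 ± 0.17 (1.80-fold, adjusted p = 9.46e-05). Both probes of Tgfb2 gave this order of sizes. The second (chr1:188447534-188447593, −, mm9) rose by 1.89 ± 0.20 in MISS WT, 1.33 ± 0.20 in MISS KO and 0.78 ± 0.20 in AF2 WT. In AF2 KO, the first probe read 1.08, 1.34 and 1.14 under E2, against 1.69, 1.68, 1.51 and 1.66 under placebo. All E2 arrays lay below all placebo arrays, but the difference of −0.45 ± 0.18 missed the threshold (adjusted p = 0.199).

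Tgfb3 (chr12:87397804-87397863, −, mm9; 10 spots) was the TGF-β ligand that fell. AF2 WT E2 arrays read 2.80, 2.78, 2.61 and 2.11, against 3.15, 3.27, 2.87 and 3.01 in AF2 WT PLB. The groups did not overlap, and the fall was −0.50 ± 0.13 (1.41-fold lower, adjusted p = 0.00166). MISS KO E2 arrays read 2.48, 2.60, 2.24 and 2.25, against 2.93, 2.83, 2.62 and 2.75 in MISS KO PLB, a fall of −0.39 ± 0.13 (1.31-fold lower, adjusted p = 0.0118). AF2 KO E2 arrays read 2.77, 2.79 and 2.69, against 3.23, 3.26, 2.99 and 3.05 in AF2 KO PLB. They did not overlap, but the difference of −0.38 ± 0.14 was not called (adjusted p = 0.152). With slide as a block it was −0.33 (adjusted p = 0.03). MISS WT was the exception in direction. Its E2 arrays read 3.39, 3.34, 3.22 and 3.14, against 2.87, 3.15, 2.76 and 2.79 in MISS WT PLB, which overlap at 1 array. The rise of 0.38 ± 0.13 (1.30-fold, adjusted p = 0.0131) depended on the scaling: it was −0.04 (adjusted p = 0.776) after quantile normalization and −0.03 (adjusted p = 0.854) in the deposited matrix. Over all genes, the median E2 difference in MISS WT was 0.16 on the main scale, 0.06 after quantile normalization and 0.04 in the deposited matrix. Under the same 2 scalings, the fall in AF2 WT was −0.82 and −0.83, and that in MISS KO −0.68 and −0.67.

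Bmp4 and Bmp2, ligands that signal through the BMP branch, fell in the same 3 genotypes. Bmp4 (chr14:47003391-47003450, −, mm9) read 1.47, 1.81, 1.55 and 1.53 in MISS KO E2, against 3.08, 3.24, 3.20 and 3.72 in MISS KO PLB, with no overlap. It fell by 1.72 ± 0.16 on the log2 scale (3.29-fold lower, adjusted p = 4.57e-10). MISS WT E2 arrays read 2.02, 1.97, 1.87 and 1.48, against 3.51, 2.66, 3.60 and 3.36 in MISS WT PLB, a fall of −1.45 ± 0.16 (2.72-fold lower, adjusted p = 1.01e-08). AF2 WT E2 arrays read 2.25, 2.21, 2.03 and 2.09, against 3.08, 2.97, 3.09 and 3.20 in AF2 WT PLB, a fall of −0.94 ± 0.16 (1.92-fold lower, adjusted p = 1.24e-05). AF2 KO moved less. Its E2 arrays read 3.08, 2.86 and 3.20, against 3.27, 3.31, 3.25 and 3.43 in AF2 KO PLB. They lay below all placebo arrays, but the difference was −0.27 ± 0.17 (adjusted p = 0.474). The other Bmp4 probe was well above background on 0 of 31 arrays and was not tested.

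Bmp2 (chr2:133388260-133388319, +, mm9) read 0.77, 0.69, 0.31 and 0.13 in AF2 WT E2, against 1.72, 1.5, 1.58 and 1.49 in AF2 WT PLB. The groups were separate, with a fall of −1.10 ± 0.18 (2.14-fold lower, adjusted p = 6.49e-06). In MISS KO, E2 arrays read 0.59, 0.47, 0.50 and 0.53, against 1.60, 1.57, 1.42 and 1.01 in MISS KO PLB, a fall of −0.88 ± 0.18 (1.84-fold lower, adjusted p = 0.00012). In MISS WT the groups overlapped. E2 arrays read 0.73, 1.07, 0.46 and 0.84, against 1.69, 1.19, 0.97 and 1.24 in MISS WT PLB, a fall of −0.50 ± 0.18 (1.41-fold lower, adjusted p = 0.0169). That call was lost without MISS WT PLB replicate 1 (adjusted p = 0.0897) or MISS WT E2 replicate 3 (adjusted p = 0.0752). AF2 KO E2 arrays read 1.68, 1.19 and 1.14, against 1.30, 1.49, 1.09 and 0.73 in AF2 KO PLB, an overlap with a difference of 0.18 ± 0.19 (adjusted p = 0.722).

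Bmp7, another ligand of the BMP branch (chr2:172695203-172695262, −, mm9), fell by a small amount in MISS WT. MISS WT E2 arrays read 2.44, 2.42, 2.14 and 1.99, against 3.11, 2.73, 2.38 and 2.50 in MISS WT PLB. The groups overlapped, and the fall was −0.43 ± 0.18 (1.35-fold lower, adjusted p = 0.0415). It was −0.77 after quantile normalization, and the call was lost without any 1 of 4 arrays: MISS WT PLB replicate 1 or 2, or MISS WT E2 replicate 3 or 4. In MISS KO, E2 arrays read 3.14, 3.47, 3.07 and 2.85, against 3.20, 3.16, 3.17 and 2.76 in MISS KO PLB. AF2 WT E2 arrays read 2.86, 3.07, 2.89 and 2.67, against 3.00, 2.90, 3.11 and 2.57 in AF2 WT PLB. AF2 KO E2 arrays read 3.19, 2.73 and 2.64, against 2.94, 3.15, 2.86 and 2.33 in AF2 KO PLB. These 3 pairs overlapped, with differences of 0.06 ± 0.18 (adjusted p = 0.815), −0.02 ± 0.18 (adjusted p = 0.934) and 0.03 ± 0.20 (adjusted p = 0.967). That in AF2 WT was −0.35 after quantile normalization and was then called (adjusted p = 0.0497). Grem1 (chr2:113589227-113589286, −, mm9) was well above background on 0 of 31 arrays, so neither a level nor a change is given.

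Counted together, 0 of the 9 measured genes passed the limma test for E2 in AF2 KO, where 3.3% of all 26900 genes did, and 2, Tgfb2 and Tgfb3, had an unadjusted p under 0.05. In AF2 WT, 4 rose and 3 fell, where 57.4% of all genes were called, 27.6% higher and 29.9% lower. In MISS KO, 5 rose and 3 fell, where 57.1% of all genes were called, 30% higher and 27.1% lower. In MISS WT, 6 rose and 3 fell, where 62% of all genes were called, 35% higher and 27% lower. Most genes on the array were called in these 3 genotypes, and nothing particular to the members is read from these counts. The groups did not overlap for 3 members in AF2 KO, 6 in AF2 WT, 8 in MISS KO and 6 in MISS WT, and for 16.6%, 49.6%, 53.1% and 54.8% of all genes in these genotypes. The members' median change was −0.16 in AF2 KO, 0.56 in AF2 WT, 1.11 in MISS KO and 0.70 in MISS WT, and that of all genes was 0.04, −0.06, 0.03 and 0.16. Without MISS WT PLB replicate 2, 6 rose and 2 fell in MISS WT, since Bmp7 was no longer called (adjusted p = 0.0765).

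**Figure D2:**
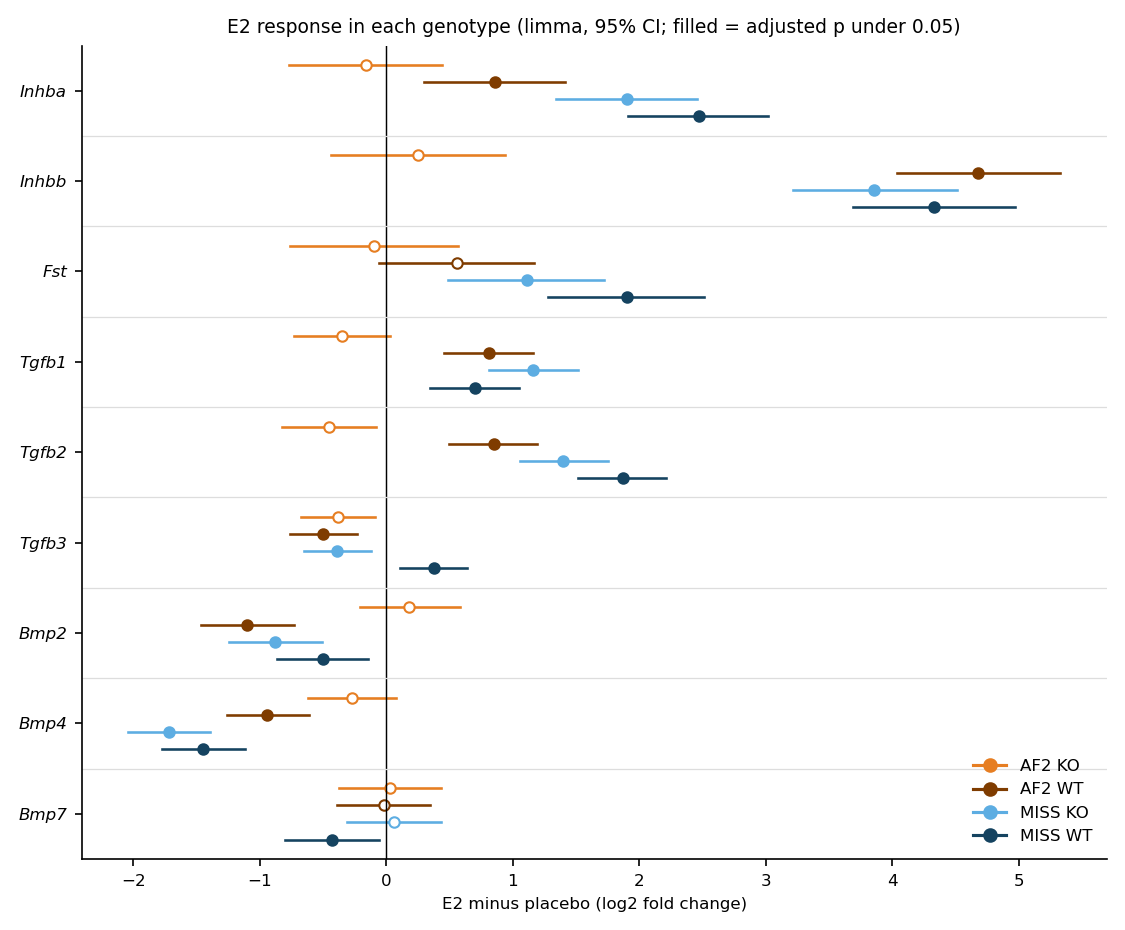
E2 minus placebo of each measured gene on the log2 scale, with 95% confidence intervals of the limma fit, for the 4 genotypes. Inhbb is at 4.68 in AF2 WT, 3.86 in MISS KO and 4.33 in MISS WT, and at 0.25 in AF2 KO.

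The AF2 line asks how the members respond without activation function 2. Under E2, Inhbb was 51.6-fold lower in AF2 KO than in AF2 WT (−5.69 ± 0.34, adjusted p = 1.36e-13). Also lower were Tgfb2 (−1.24 ± 0.18, adjusted p = 1.42e-06), Inhba (−1.16 ± 0.29, adjusted p = 0.00138) and Tgfb1 (−1.12 ± 0.18, adjusted p = 8.94e-06). Bmp4 (0.90 ± 0.17, adjusted p = 6.11e-05) and Bmp2 (0.86 ± 0.19, adjusted p = 0.000381) were higher. These are 6 of 9 genes, where 56.7% of all genes were called, 29.9% higher and 26.8% lower. Tgfb3 was at 0.18 (adjusted p = 0.298), and was called higher in AF2 KO after quantile normalization (0.48, adjusted p = 0.000937), in the deposited matrix (0.46, adjusted p = 0.00157) and with slide as a block (0.23, adjusted p = 0.0333). The interaction term, which compares the E2 responses themselves, called the same 6 genes, where 51.6% of all genes were called, 28.7% higher and 22.8% lower. The response was lower in AF2 KO by −4.44 ± 0.46 for Inhbb (adjusted p = 1.2e-08), by −1.30 ± 0.25 for Tgfb2 (adjusted p = 8.57e-05), by −1.16 ± 0.25 for Tgfb1 (adjusted p = 0.000412) and by −1.02 ± 0.40 for Inhba (adjusted p = 0.0353). It was higher by 1.28 ± 0.26 for Bmp2 (adjusted p = 0.000197) and by 0.67 ± 0.23 for Bmp4 (adjusted p = 0.019). The term for all genes had a median of 0.18. Bmp4 was not called without AF2 KO E2 replicate 3 (0.59, adjusted p = 0.0548), and the Inhba call was lost without any 1 of 6 arrays.

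For the other 3 genes the interaction was not called: −0.65 ± 0.44 for Fst (95% interval −1.56 to 0.25), 0.05 for Bmp7 (−0.49 to 0.60) and 0.12 for Tgfb3 (adjusted p = 0.624). Tgfb3 passed the test after quantile normalization (0.44, adjusted p = 0.0221) and in the deposited matrix (0.45, adjusted p = 0.0241).

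Under placebo, 1 of the 9 genes differed between AF2 KO and AF2 WT, against 8.58% of all genes. Inhbb was 2.39-fold lower in AF2 KO (−1.25 ± 0.31, adjusted p = 0.0111), at −0.02 to 0.56 in AF2 KO PLB, against 1.44 to 1.77 in AF2 WT PLB, with no overlap. A lower Inhbb level in this mutant was thus also seen under placebo. Bmp2 did not overlap either (−0.42, adjusted p = 0.158). Nor did Bmp4, which was not called, at 3.25 to 3.43 in AF2 KO PLB, against 2.97 to 3.20 in AF2 WT PLB. The share of all genes without overlap was counted for E2 against placebo only, not for KO against WT. Nothing particular to the members is read from the lack of overlap here. With slide as a block Bmp2 passed the test (adjusted p = 0.0303), as did Fst, which was higher in AF2 KO (0.74, adjusted p = 0.0306). That block raised the calls over all 26900 genes as well, from 2307 to 5163.

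**Figure D3:**
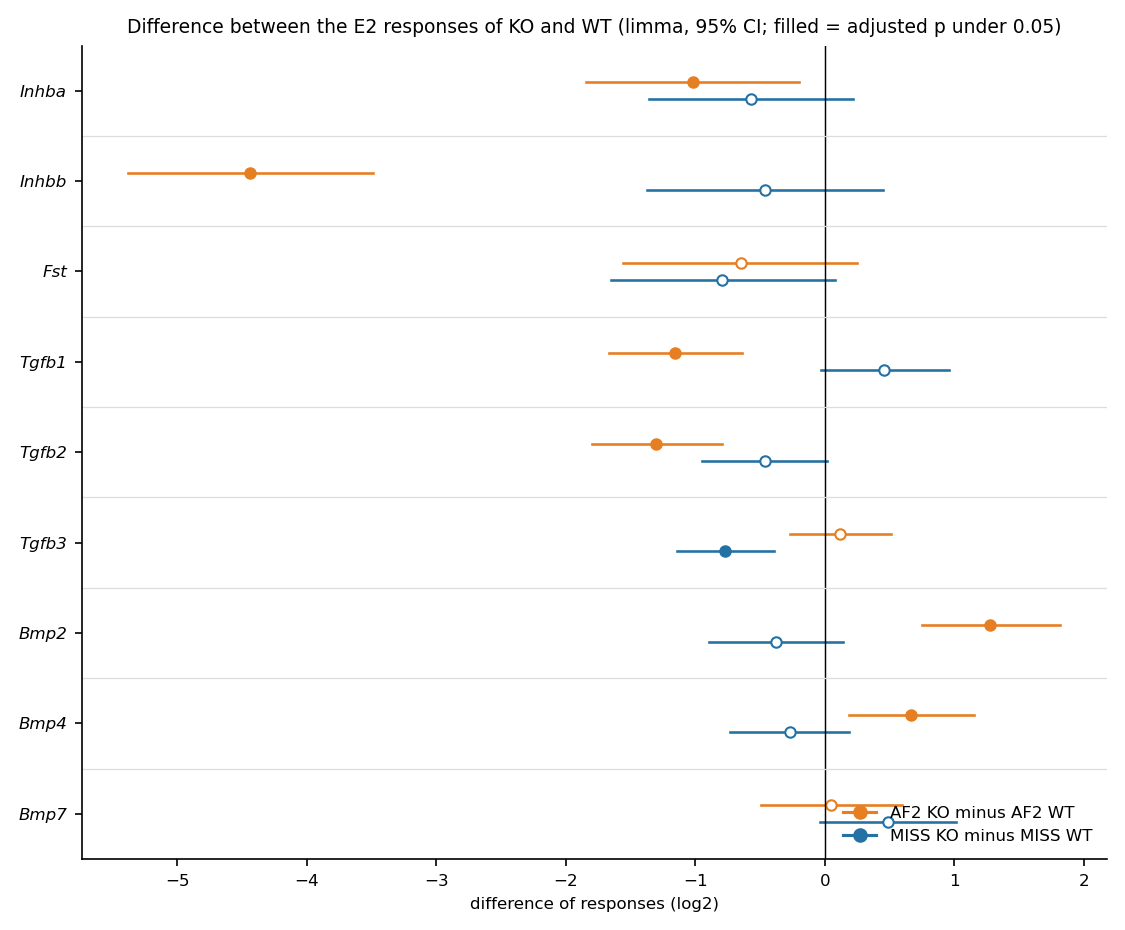
Difference between E2 responses (log2, with 95% confidence intervals of the limma fit) for AF2 KO minus AF2 WT and MISS KO minus MISS WT. In the AF2 line Inhbb is at −4.44 and Bmp2 at 1.28, and in the MISS line Tgfb3 is at −0.77.

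The MISS line asks how the members respond without ERα at the membrane. Most members responded in MISS KO. The interaction term called 1 of 9 genes, where 0.84% of all genes were called. That gene was Tgfb3, with a response lower in MISS KO by −0.77 ± 0.18 (95% interval −1.14 to −0.39, adjusted p = 0.0418). Within the 4 slides the difference was −0.97 to −0.42, and it was −0.64 both after quantile normalization (adjusted p = 0.0407) and in the deposited matrix (adjusted p = 0.0429). The call was close to the threshold and was lost on leaving out any 1 of 12 of the 16 arrays. Under E2 itself, Tgfb3 lay at 2.24 to 2.60 in MISS KO, against 3.14 to 3.39 in MISS WT, with no overlap (−0.88 ± 0.13, 1.84-fold lower, adjusted p = 0.000174), and at −0.97 to −0.74 within slides.

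Bmp7 was the other member that differed under E2, 2 of 9 genes in all against 2.57% of all genes. It lay at 2.85 to 3.47 in MISS KO E2, against 1.99 to 2.44 in MISS WT E2, with no overlap (0.88 ± 0.18, 1.85-fold higher, adjusted p = 0.00614), and at 0.71 to 1.05 within slides. Its response difference of 0.49 ± 0.26 was not called (95% interval −0.04 to 1.01, adjusted p = 0.524). Under placebo Bmp7 was at 0.40 ± 0.18 (adjusted p = 0.426) between MISS KO and MISS WT, and at 0.1 to 0.79 within slides. There, 0 of the 9 genes were called by limma, against 0.781% of all genes, and Bmp7 and Tgfb1 (2 genes) had an unadjusted p under 0.05.

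**Figure D4:**
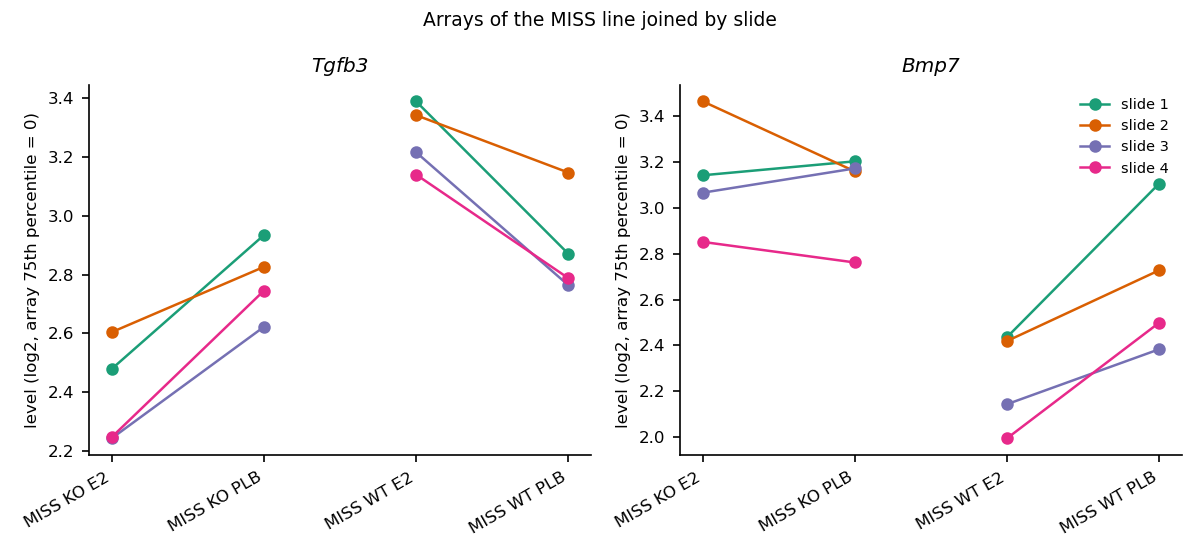
Levels (log2) of the 2 members that differed between MISS KO and MISS WT under E2, with arrays of the same slide joined by a line. On each of the 4 slides Tgfb3 is lower and Bmp7 higher in MISS KO E2 than in MISS WT E2.

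For the remaining members no response difference was called in the MISS line, and the 95% intervals were wide. They ran from −1.36 to 0.22 for Inhba (−0.57 ± 0.38, adjusted p = 0.648), from −1.37 to 0.45 for Inhbb (−0.46 ± 0.44, adjusted p = 0.766) and from −1.65 to 0.08 for Fst (−0.79 ± 0.42, adjusted p = 0.537). They ran from −0.95 to 0.02 for Tgfb2, from −0.03 to 0.96 for Tgfb1, from −0.89 to 0.14 for Bmp2 and from −0.73 to 0.19 for Bmp4. These intervals do not show that the responses were alike. Under E2, Tgfb2 did not overlap between MISS KO and MISS WT (−0.37 ± 0.17), but was not called (adjusted p = 0.359). For this comparison the share of all genes without overlap was not counted. Nothing particular is therefore read from the lack of overlap of Tgfb2, Tgfb3 or Bmp7. Inhbb was at −0.87 ± 0.31 (adjusted p = 0.185), and passed the test with slide as a block (adjusted p = 0.0371). Inhba was at −0.66 (adjusted p = 0.28), and at −0.99 (adjusted p = 0.0209) without MISS WT E2 replicate 4.

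Between the wild types, 4 of 9 members had a higher E2 response, as a log2 change with its sign, in MISS WT than in AF2 WT. Of all genes, 8.84% differed in either direction and 5.96% were higher. This comparison shares the MISS WT and AF2 WT arrays with the comparisons above. The difference was 1.61 ± 0.38 for Inhba (adjusted p = 0.00902), 1.34 ± 0.42 for Fst (adjusted p = 0.0484), 1.02 ± 0.24 for Tgfb2 (adjusted p = 0.00755) and 0.88 ± 0.18 for Tgfb3 (adjusted p = 0.00316). The median over all genes was 0.11. Tgfb3 fell in AF2 WT and rose in MISS WT on the main scale, so its value is a difference in direction and not a larger rise. An activin subunit and its binder were thus both among the 4. The call for Fst was lost after quantile normalization (1.22, adjusted p = 0.0845), in the deposited matrix (1.14, adjusted p = 0.0865) and without any 1 of 10 arrays. Without MISS WT PLB replicate 2, 5 members were called, with Bmp4 added at −0.72 (adjusted p = 0.0149). That array was singled out by its own levels of these members, Bmp4 among them, so the added call is no separate support. With slide as a block, Bmp2 was added at 0.60 (adjusted p = 0.0282). Inhbb did not pass (−0.36, adjusted p = 0.7). Under placebo, limma called 0 of 9 members between MISS WT and AF2 WT, where 11.2% of all genes were called, and 0 had an unadjusted p under 0.05.

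Over the 31 arrays, some members ran closely together. As a description only, since the arrays share groups and slides, Pearson's r was 0.97 between Inhba and Tgfb2 and −0.86 between Inhbb and Bmp4. The genes most like Inhbb were Ramp3, which encodes a receptor activity-modifying protein (r = 0.994), and Fam65b (0.99). Those most like Inhba were the NF-κB subunit gene Nfkb2 (0.984) and Tgfb2 (0.966), and those most like Tgfb2 were Atp6ap1 and another NF-κB subunit gene, Relb (0.967 each). Tgm2, a transglutaminase gene, was most like Tgfb1 (0.935), Wdr45 most like Bmp4 (0.963) and Ctnnd1, the p120 catenin gene, most like Fst (0.906). For Bmp2 it was 9530053J19Rik (0.933). Bmp7 and Tgfb3 had no such close partner, with Fance (0.799) and Sema3c (0.792) first.

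The rest of the pathway was read from lists of other genes. The counts of every list below stand beside these shares of all genes called for E2. They were 3.3% in AF2 KO, 57.4% in AF2 WT (27.6% higher, 29.9% lower) and 57.1% in MISS KO (30% higher, 27.1% lower). In MISS WT the share was 62% (35% higher, 27% lower). Nothing particular to a list is read from its counts. Of 20 other ligands tested among 24, 0 were called for E2 in AF2 KO, 4 rose and 5 fell in AF2 WT, 5 rose and 4 fell in MISS KO, and 8 rose and 3 fell in MISS WT. After quantile normalization 8 rose and 4 fell in MISS KO. In AF2 KO, limma at an unadjusted p under 0.05 gave 5 of these ligands, 2 receptors, 0 Smads and 2 response genes. Inha encodes the α subunit that turns activin subunits into inhibins. It fell, with changes of −2.35 ± 0.14 in AF2 WT (adjusted p = 6.72e-14), −2.19 ± 0.14 in MISS KO (adjusted p = 2.12e-13) and −2.04 ± 0.14 in MISS WT (adjusted p = 6.69e-13). The α subunit thus fell in the same genotypes in which the β subunit genes Inhba and Inhbb rose. Nodal, another Smad2 and Smad3 ligand, rose by 0.87 ± 0.21, 0.81 ± 0.21 and 0.83 ± 0.21 in AF2 WT, MISS KO and MISS WT. Lefty1, which encodes a Nodal inhibitor, fell in them, at −1.35 ± 0.16, −0.66 ± 0.16 and −1.15 ± 0.16. Inhbc, a further β subunit gene, was well above background on no E2 array of these 3 genotypes and was at least 1.65-fold lower in AF2 WT (adjusted p = 4.92e-07), 1.73-fold in MISS KO (adjusted p = 3.37e-06) and 1.79-fold in MISS WT (adjusted p = 8.28e-06).

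In the MISS line, 2 of these ligands had a different response in KO and WT, where 0.84% of all genes did. Gdf1 rose by 2.0 ± 0.21 in MISS WT and was at 0.23 ± 0.21 in MISS KO, a response difference of −1.77 ± 0.29 (adjusted p = 0.0017). In the mouse Gdf1 shares a transcript with Cers1, so the source of this signal is uncertain. Gdf10, a BMP-like ligand, rose by 1.17 ± 0.14 in MISS KO and was at 0.13 ± 0.14 in MISS WT, a difference of 1.04 ± 0.20 (adjusted p = 0.00769).

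Among 14 receptors tested of 15, 3 rose and 5 fell in AF2 WT and in MISS KO, 2 rose and 5 fell in MISS WT, and 0 were called in AF2 KO. After quantile normalization 7, 10 and 10 fell in AF2 WT, MISS KO and MISS WT. Acvr2b, an activin type II receptor gene, fell, with changes of −2.22 ± 0.20 in AF2 WT, −2.98 ± 0.20 in MISS KO and −3.36 ± 0.20 in MISS WT, and was at 0.14 ± 0.22 in AF2 KO. Eng encodes endoglin, a TGF-β co-receptor of endothelium, and rose by 2.53 ± 0.13, 2.41 ± 0.13 and 2.27 ± 0.13 in AF2 WT, MISS KO and MISS WT. The summed endothelial markers (6 genes) were 11.7 to 13.4 in AF2 WT E2, against 11.3 to 13.9 in AF2 WT PLB. They were 10.9 to 13.4 in MISS KO E2, against 11 to 12.1 in MISS KO PLB. In MISS WT they were 11.1 to 12.6 under E2, against 9.65 to 12.5 under placebo. Of these markers, Pecam1 rose by 0.39, 0.39 and 0.43 in AF2 WT, MISS KO and MISS WT. Tek fell in MISS KO (−0.38) and MISS WT (−0.43), and no other marker of this list was called in these genotypes. In AF2 KO their sum was 9.9 to 11.2 under E2, against 10.7 to 12.8 under placebo. Under E2, Pecam1 (−0.55), Esam (−0.46) and Tie1 (−0.42) were called lower in AF2 KO than in AF2 WT, and Cdh5, Tek and Emcn were not. The part endothelium plays in the Eng values was not tested. The BMP type I receptor gene Bmpr1b fell as well (−1.65 ± 0.17 in AF2 WT, −1.57 ± 0.17 in MISS KO and −1.99 ± 0.17 in MISS WT).

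Of the 8 Smads, 3 rose and 2 fell in AF2 WT and in MISS KO, 4 rose and 2 fell in MISS WT, and 0 were called in AF2 KO. After quantile normalization 2 rose and 3 fell in AF2 WT, and 3 rose and 3 fell in MISS KO and in MISS WT. Smad9, which carries BMP signals, fell the most, at −3.32 ± 0.23 in AF2 WT, −3.87 ± 0.23 in MISS KO and −3.60 ± 0.23 in MISS WT. Smad7, which encodes an inhibitory Smad, rose by 1.43 ± 0.30, 1.16 ± 0.30 and 1.49 ± 0.30 in these genotypes. Smad2 rose by 0.78 ± 0.19, 0.78 ± 0.19 and 0.70 ± 0.19, while Smad3 fell (−0.36 ± 0.11, −0.94 ± 0.11 and −0.57 ± 0.11). The 2 Smads of the activin and TGF-β branch therefore moved in opposite directions.

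Antagonists and binders went both ways. Of 20 tested among 22, 0 rose and 1 fell in AF2 KO, 6 rose and 9 fell in AF2 WT, 7 rose and 9 fell in MISS KO, and 7 rose and 8 fell in MISS WT. Lrrc32 encodes GARP, which holds latent TGF-β at the cell surface, and rose by 2.90 ± 0.12 in AF2 WT, by 3.21 ± 0.12 in MISS KO and by 3.34 ± 0.12 in MISS WT. Fstl3, a follistatin-like activin binder, rose by 1.72 ± 0.22, 1.64 ± 0.22 and 2.08 ± 0.22. Chrdl2, of the chordin family of BMP binders, rose by 2.06 ± 0.19, 2.37 ± 0.19 and 1.36 ± 0.19, while its relative Chrdl1 fell (−0.68 ± 0.14, −1.10 ± 0.14 and −1.0 ± 0.14). Ltbp3, a latent TGF-β binding protein gene, was the single list gene of this group called in AF2 KO. It fell there (−0.45 ± 0.09, adjusted p = 0.00364), as it did in AF2 WT (−0.60 ± 0.08), MISS KO (−0.78 ± 0.08) and MISS WT (−0.94 ± 0.08).

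The list of proteases and activators holds precursor-cutting convertases, other proteases and genes of TGF-β activation such as integrin subunits. Of 11 tested among 12, 8 rose and 1 fell in AF2 WT, and 7 rose and 1 fell in MISS KO and in MISS WT. After quantile normalization 6 rose and 0 fell in MISS KO. Their median change was 0.49 in AF2 WT, 0.48 in MISS KO and 0.70 in MISS WT, beside −0.06, 0.03 and 0.16 over all genes. Furin, a precursor-cutting convertase, rose by 0.94 ± 0.13, 0.89 ± 0.13 and 1.02 ± 0.13, and Htra1, a secreted serine protease gene, rose by 1.68 ± 0.23, 2.09 ± 0.23 and 1.71 ± 0.23. In AF2 KO, 0 rose and 2 fell. These were the convertase genes Pcsk6 (−0.92 ± 0.25, adjusted p = 0.0398) and Pcsk5 (−0.66 ± 0.18, adjusted p = 0.0485, and 0.0558 in the deposited matrix). In AF2 WT both rose, Pcsk6 by 1.01 ± 0.23 and Pcsk5 by 0.49 ± 0.17. Itgb8, an integrin subunit of TGF-β activation, was well above background on no AF2 WT E2 array and was at least 2.45-fold lower in AF2 WT (adjusted p = 5.31e-10).

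Among 15 genes known to respond to TGF-β or BMP signals, 4 rose and 7 fell in AF2 WT, 7 rose and 7 fell in MISS KO, 5 rose and 7 fell in MISS WT, and 0 were called in AF2 KO. The Smad feedback genes Skil and Pmepa1 rose, Skil by 1.51 ± 0.11, 1.09 ± 0.11 and 1.01 ± 0.11 and Pmepa1 by 1.5 ± 0.22, 1.59 ± 0.22 and 1.63 ± 0.22 in AF2 WT, MISS KO and MISS WT. Other TGF-β response genes fell, with changes of −1.26 ± 0.24, −1.68 ± 0.24 and −1.45 ± 0.24 for Ctgf and −0.72 ± 0.11, −1.42 ± 0.11 and −1.25 ± 0.11 for Tgfbi. The BMP response genes divided as well. Id2 fell (−1.61 ± 0.15, −1.91 ± 0.15 and −1.65 ± 0.15), while Id1 rose by 1.17 ± 0.17 in AF2 WT, by 0.61 ± 0.17 in MISS KO and by 1.47 ± 0.17 in MISS WT. The rise of Id1 in MISS KO was not called after quantile normalization (0.21). Id3 fell in MISS KO (−1.46 ± 0.16) and in MISS WT (−0.47 ± 0.16), a response difference of −1.0 ± 0.23 (adjusted p = 0.0326) that was lost after quantile normalization (−0.92, adjusted p = 0.0898).

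**Figure D5:**
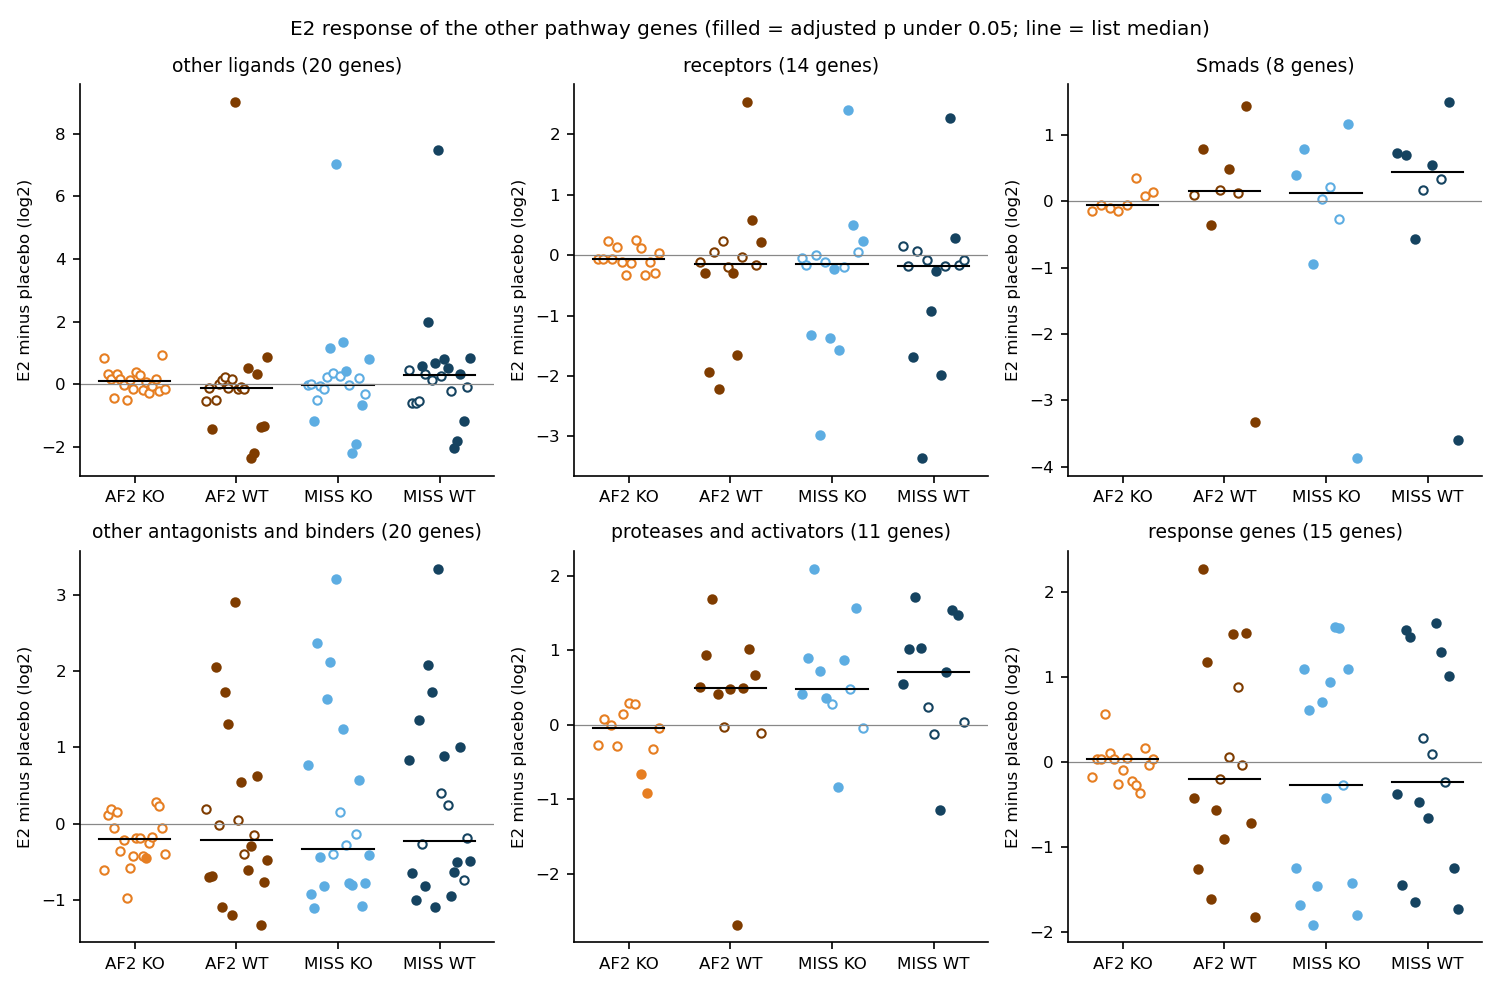
E2 minus placebo (log2) of the other pathway genes, 1 point per gene, by list and genotype, filled where the adjusted p was under 0.05, with a line at the list median. In AF2 KO, 1 antagonist or binder and 2 proteases are filled, while in AF2 WT 15 of 20 antagonists and binders and 9 of 11 proteases and activators are. Over all genes, 3.3% were called in AF2 KO and 57.4% in AF2 WT.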

How the data were processed

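RNA of mouse uterus was hybridised by the authors to 1-colour (Cy3) Agilent arrays, 1 per sample. Per the file headers, the deposited processed signal of a spot is a background-subtracted intensity, not scaled between arrays. The submitters' processing notes name Agilent Feature Extraction 10.10.1.1 and limma, the latter with no version or step. The deposited series matrix holds the authors' log2 values of 43753 probes, with equal column medians of 7.56. Each column followed its own array best for 31 of 31 arrays. How it was scaled is not given in the sources used here, and it served as an alternative.

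Each array has 62976 spots, of which 59305 are not controls. Spots that the files flag as outliers were set missing (77 values of tested probes), log2 signals of spots of 1 probe were averaged, and the array's 75th percentile was subtracted. Of the probes, 40336 were tested, namely those flagged as well above background on all arrays of some group. A gene was read by its brightest tested probe, giving 26900 genes. limma 3.58.1 (lmFit, eBayes) in R 4.3.3 fitted 1 mean per group over all 31 arrays, with 23 residual degrees of freedom. The 12 contrasts were E2 against placebo, KO against WT, MISS WT against AF2 WT, and differences between responses. Calls rest on p-values adjusted after Benjamini and Hochberg across the tested probes, with a threshold of 0.05. Changes are log2 ± SE. A fold against a group with no array above background is given as "at least", against the dimmest signal above background. The scripts were tested on simulated data. Precision is limited by the number of arrays.

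The 4 slides each held 1 array per group, except that slide 2 had no AF2 KO E2 array. Slide entered as a block and through values within slides. Other alternatives were quantile normalization, normexp with offset 50, other filters, the mean of a gene's probes, a fit per line, and leaving out each array. Named list genes were up to 3 with the largest rises and falls per list in a wild type, and any called in AF2 KO or different between KO and WT, of which a part is printed. For each member, the 2 genes with the highest correlation were considered. The members and lists were chosen with earlier results of these data known. Python 3.11.15, pandas 2.3.3 and matplotlib 3.10.9 served for reading and plotting.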

Additional observations from a re-analysis of the deposited data

Results flagged for a closer look

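In 3 of 63 sets of a member and a group of 4 arrays, 1 array lay far from the others by Dixon's ratio, which chance gives in about 1 of 20 sets. These were Inhba in MISS WT PLB replicate 2 (0.49), Bmp7 in MISS KO PLB replicate 4 (2.76) and Tgfb1 in AF2 KO PLB replicate 4 (−1.26), all log2 levels.

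By the interaction term of the fit, the E2 response differed between AF2 KO and AF2 WT for Inhba (−1.02), Inhbb (−4.44), Tgfb1 (−1.16), Tgfb2 (−1.30), Bmp2 (1.28) and Bmp4 (0.67). Among the other pathway genes, Eng (−2.86), Lrrc32 (−3.32) and Pcsk6 (−1.93) had a lower response in AF2 KO, and Acvr2b (2.35), Smad9 (3.46) and Id2 (1.72), which fell in AF2 WT, had a higher one. Between MISS KO and MISS WT it differed for Tgfb3 (−0.77), Gdf1 (−1.77), Gdf10 (1.04) and Id3 (−1.0). Between MISS WT and AF2 WT it differed for Inhba (1.61), Fst (1.34), Tgfb2 (1.02) and Tgfb3 (0.88). All are differences of log2 changes.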

How the results depend on the processing

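Of 108 member results, 102 kept direction and side of the threshold after quantile normalization, 104 in the deposited matrix, 105 with no filter on dim probes, 101 with slide as a block (7 were newly called) and all 108 under normexp, the strict filter and the mean of probes. The Tgfb3 response in MISS WT reversed after quantile normalization (−0.04) and in the deposited matrix (−0.03). Over all genes, the median E2 difference in MISS WT was 0.06 and 0.04 under these scalings, against 0.16 on the main scale. In AF2 WT it was −0.02 and −0.01, against −0.06. The Inhba response in AF2 WT reversed within slide 4 (−0.17). With slide as a block, 3 members were called between AF2 KO and AF2 WT under placebo and 1 for E2 in AF2 KO. Of all 26900 genes, that block called 5163 against 2307 in the first comparison and 2501 against 889 in the second. For the response difference of the MISS line, 0 were called with no filter and 0 in the fit over the arrays of that line alone. The cause was not tested.

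Leaving out 1 array gave 4 to 6 called response differences in the AF2 line, 0 to 1 in the MISS line and 3 to 5 between wild types, 7 to 9 called members for E2 in MISS WT and 2 to 3 between MISS KO and MISS WT under E2. The counts for E2 in AF2 KO (0), AF2 WT (7) and MISS KO (8) did not move.

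After quantile normalization, 3 antagonists and binders were called for E2 in AF2 KO, 2 of them differed in response between wild types, 0 proteases and activators did, and 11 receptors were called for E2 in MISS WT. Over all genes, 889 were called for E2 in AF2 KO, 567 after quantile normalization, 1612 under normexp, 503 with the strict filter, 642 in the deposited matrix and 2501 with slide as a block. With that block, 5163 genes against 2307 differed between AF2 KO and AF2 WT under placebo (3922 under normexp), 732 against 210 between MISS KO and MISS WT under placebo (336 in the deposited matrix), 1808 against 692 between them under E2, 954 against 226 in their response, 5397 against 3013 between wild types under placebo (5445 under normexp) and 5486 against 2378 in the response of the wild types.

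No paired analysis was possible because the labels number no animals or replicates across groups. This concerns pairing of animals, while arrays that share a slide were compared through the block and within slides. With 3 or 4 arrays per group, small changes can miss the threshold, and Grem1 was too dim to be read.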
